A study of Homo sapiens with 6 samples.

Results

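The insulin-like growth factor (IGF) system was described in U87-2M1 glioma cells through 10 genes: the binding proteins IGFBP1 to IGFBP7, the receptors IGF1R and IGF2R, and the mRNA-binding protein IGF2BP3. They were taken by symbol from the probe sets that carry a single gene symbol, and 28 such probe sets of 41091 represented them, or 10 genes of 19775. The probe set with the highest mean signal over the 6 arrays stood for each gene, and the other 18 served as checks. U87-2M1 is an invasive subline of the U87 human glioma line, obtained through a lung metastasis assay in animals. All arrays were made from passage 4 cells kept in hypoxia in medium with serum. In 3 arrays the cells had received a baculovirus carrying a control decoy, and in the other 3 a baculovirus carrying a decoy for miR-10b, a microRNA abundant in glioma. A baculovirus is an insect virus used here to bring DNA into human cells, and a decoy is a transcript meant to bind the microRNA. Binding of miR-10b by the decoy was not measured here. Nothing in the labels says whether the replicates came from separate cultures. The p-values then describe only the spread among these arrays, which may be technical, and having 3 arrays per group limits precision throughout.

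IGF1 and IGF2 are secreted growth factors that act through IGF1R, a receptor tyrosine kinase of the cell surface that drives growth and survival through the PI3K-AKT pathway. IGF2R, also the cation-independent mannose 6-phosphate receptor, binds IGF2 without such a kinase and carries it to the lysosome. IGFBP1 to IGFBP6 hold IGFs in the extracellular fluid with high affinity and can block or prolong their action, and proteases release the growth factor by cutting them. IGFBP7 binds IGFs weakly and is deposited in the matrix around cells. IGF2BP3 is no IGF-binding protein: it is a cytoplasmic protein of fetal tissues and tumours that binds mRNAs, IGF2 mRNA among them.

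With the miR-10b decoy, IGFBP7, IGF2BP3, IGFBP3 and IGFBP1 were lower and IGF2R was higher than with the control decoy. IGF1R, IGFBP4, IGFBP5 and IGFBP6 did not pass the threshold. IGFBP2 stood below the filter on dim genes and was not tested. Of the 9 tested genes 4 were thus lower and 1 higher, at an adjusted p under 0.05 in limma over all 13842 tested genes. Over all tested genes 34.0% were called, 17.4% lower and 16.6% higher, so calls were common everywhere and the count of 5 in 9 does not by itself set the IGF genes apart. The median log2 difference was -0.18 over the 9 genes and -0.02 over all tested genes. Signals below are MAS5 intensities after quantile normalization, in arbitrary units. The log2 differences were taken on log2(signal + 7), with the miR-10b decoy minus the control decoy, and understate changes of dim genes.

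The start regions of IGF2R, the higher gene, and of IGF2BP3 and IGFBP3, which were lower, are shown because IGF2R and IGF2BP3 share a sequence element there. The regions of the other called genes, IGFBP1 and IGFBP7, were not analysed here. Each runs from 250 bases before to 50 after a start site in RefSeq (GRCh38.p14), with IGF2R at chr6:159968832-159969131 on the plus strand, IGF2BP3 at chr7:23470442-23470741 on the minus strand and IGFBP3 at chr7:45921223-45921522 on the minus strand. Capitals mark matches on either strand to the E-box CACGTG, the TATA boxes TATAAA and TATATA, the GC box GGGCGG and the FOXO motif GTAAACA.
IGF2R: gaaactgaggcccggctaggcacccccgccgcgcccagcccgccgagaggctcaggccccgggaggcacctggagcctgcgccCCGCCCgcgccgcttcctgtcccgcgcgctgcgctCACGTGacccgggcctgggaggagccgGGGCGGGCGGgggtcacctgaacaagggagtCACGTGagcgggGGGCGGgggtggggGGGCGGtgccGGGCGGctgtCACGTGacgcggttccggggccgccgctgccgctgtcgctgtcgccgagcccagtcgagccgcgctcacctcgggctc
IGF2BP3: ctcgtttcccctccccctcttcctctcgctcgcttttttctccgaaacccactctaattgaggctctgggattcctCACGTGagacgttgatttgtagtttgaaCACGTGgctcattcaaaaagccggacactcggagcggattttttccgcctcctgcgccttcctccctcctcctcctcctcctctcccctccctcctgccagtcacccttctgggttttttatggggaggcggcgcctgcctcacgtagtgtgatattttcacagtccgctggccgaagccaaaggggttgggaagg
IGFBP3: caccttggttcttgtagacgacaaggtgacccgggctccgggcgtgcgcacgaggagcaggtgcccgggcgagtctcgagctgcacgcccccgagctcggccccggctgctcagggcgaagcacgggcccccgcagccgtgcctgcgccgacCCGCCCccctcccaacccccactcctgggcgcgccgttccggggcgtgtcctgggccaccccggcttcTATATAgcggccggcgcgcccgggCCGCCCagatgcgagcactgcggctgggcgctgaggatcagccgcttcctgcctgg
The IGF2R region held 3 E-boxes and 6 GC boxes, some of them overlapping. Of the 35116 start regions in the RefSeq table, 7.26% held at least 1 E-box and 0.094% at least 3. The IGF2BP3 region held 2 E-boxes and no GC box, and at least 2 E-boxes were found in 0.664% of regions. These cut-offs of 3 and 2 were set at each gene's own count, so the small shares are descriptions only. The IGFBP3 region held 1 TATATA and 2 GC boxes but no E-box. Of all regions 4.0% held TATATA and 45.0% a GC box. The table had start regions for 8 of the 10 genes, 10 regions in all, and those not shown held no E-box. TATAAA occurred once, in IGFBP4, and the FOXO motif once, in IGFBP6, against 11.5% and 3.4% of all regions. The genes with E-boxes were called in opposite directions, and a match describes these letters only.

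**Figure D1:**
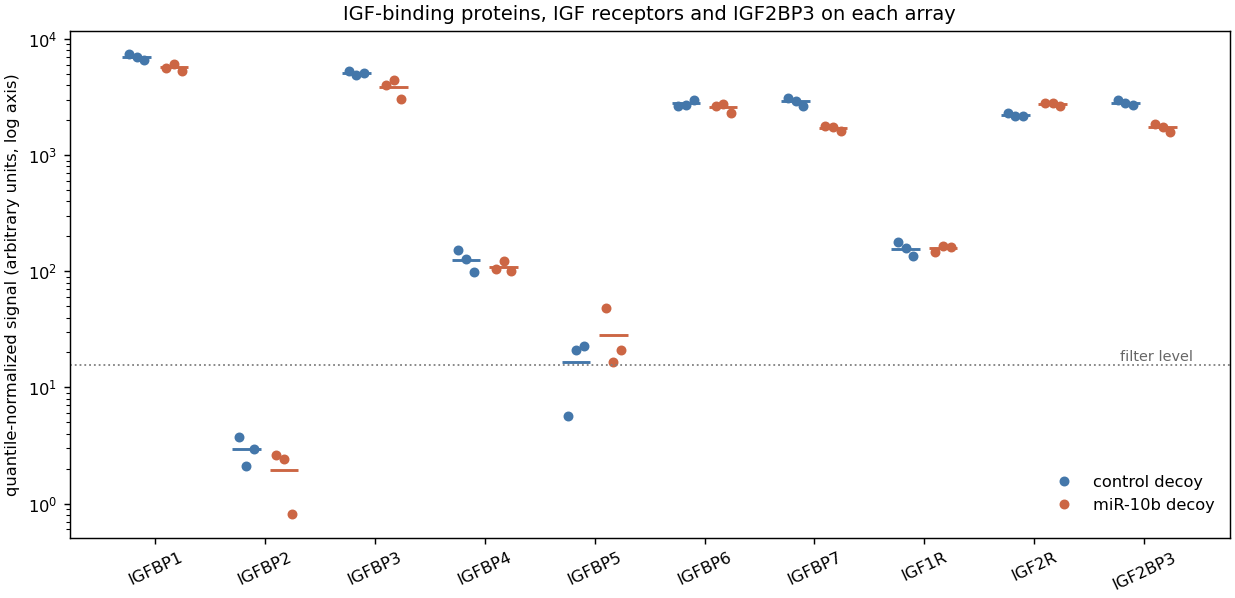
Quantile-normalized signal (arbitrary units, log axis) of the 10 IGF genes on each array, with points for replicates 1 to 3 from left to right and a bar at the group mean; blue is the control decoy, orange the miR-10b decoy, and the dotted line is the filter level of 15.6. The groups lie apart for IGFBP1, IGFBP3, IGFBP7, IGF2R and IGF2BP3, overlap for IGFBP4, IGFBP5, IGFBP6 and IGF1R, and IGFBP2 lies under the filter level on every array.

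Among the receptors, IGF2R had signals of 2306, 2195 and 2197 on the control arrays and of 2820, 2804 and 2656 with the miR-10b decoy. Every decoy array lay above every control array. Groups that did not overlap, in either direction, were found for 5 of the 9 tested IGF genes, which were the called ones, and for 46.4% of all tested genes. The means were 2233 ± 63.6 and 2760 ± 90.4 (SD, n = 3), a log2 difference of 0.30 (SE 0.05, limma adjusted p = 5.6e-04), or 1.24-fold. A second IGF2R probe set was higher as well, going from 1115 ± 137 to 1400 ± 94.6 (SD, n = 3), a log2 difference of 0.33. The third, at 153 ± 15.6 and 122 ± 6.24 (SD, n = 3), had the opposite sign, -0.31, and did not pass (limma adjusted p = 0.078 over all probe sets). In the values as deposited the log2 difference was 0.15 and the call ended (adjusted p = 0.425), where the median of all genes was -0.14. Under the other scalings IGF2R was still called, at 0.32 after centring on the array median (adjusted p = 6.8e-04) and at 0.25 with a common trimmed mean (adjusted p = 0.0022). Averaging the 3 probe sets ended the call, at 0.11 (adjusted p = 0.257). In the values as deposited the 4 lower IGF genes stayed lower, so 4 of 9 were called, with 26.4% of all genes called there.

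IGF1R, the signalling receptor, had signals of 178, 159 and 135 in controls and 148, 167 and 160 with the decoy, so that the groups overlapped. The log2 difference was 0.02, with a 95% interval from -0.24 to 0.28 (adjusted p = 0.931). None of the 3 other tested IGF1R probe sets passed, with log2 differences of -0.20, -0.01 and -0.10, and 1 more lay under the filter level.

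IGFBP7 fell, with the lowest log2 difference of the 9 brightest probe sets. Its control signals were 3089, 2958 and 2672, and those with the miR-10b decoy 1781, 1752 and 1631. No decoy array came near the lowest control. The mean went from 2906 ± 214 to 1721 ± 79.4 (SD, n = 3), a log2 difference of -0.75 (SE 0.06, limma adjusted p = 5.5e-06), or 1.68-fold lower. A second IGFBP7 probe set fell from 1728 ± 105 to 1118 ± 131 (SD, n = 3), a log2 difference of -0.63, and the third lay under the filter level on all arrays. With the mean of all 3 probe sets, that dim one included, the difference was -0.40 (adjusted p = 0.039).

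IGFBP3, the main carrier of IGFs in blood and a secreted product of many cultured cells, had control signals of 5330, 4949 and 5076. With the decoy they were 4060, 4443 and 3079, all below the controls, with replicate 3 the lowest. The means were 5119 ± 194 and 3861 ± 703 (SD, n = 3), a log2 difference of -0.42 (SE 0.10, limma adjusted p = 0.0074), or 1.34-fold lower. Without miR-10b decoy replicate 3 the difference was -0.27 (adjusted p = 0.0038). The other IGFBP3 probe set gave a larger fall, from 1507 ± 233 to 807 ± 188 (SD, n = 3), a log2 difference of -0.91 or 1.88-fold lower, and the mean of both gave -0.67 (adjusted p = 0.0087). The brighter probe set no longer passed once the intensity trend was dropped (adjusted p = 0.080) or each gene kept its own variance (no moderation, adjusted p = 0.15). Without moderation 3 of the 9 genes were called, where 20.4% of all genes were.

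IGFBP1, a binding protein that liver cells secrete in fasting and that many cells make in hypoxia or amino acid shortage, gave control signals of 7404, 6973 and 6592. The decoy arrays read 5676, 6089 and 5352, again all below the controls. The means were 6990 ± 406 and 5706 ± 370 (SD, n = 3), a log2 difference of -0.29 (SE 0.05, limma adjusted p = 0.0016), or 1.23-fold lower. A second IGFBP1 probe set lay between 0.50 and 1.65 on all arrays, far under the filter level, and its average with the bright one ended the call (log2 difference -0.15, adjusted p = 0.213). The call also ended without moderation (adjusted p = 0.063). In the values as deposited the difference was -0.44 (adjusted p = 0.0043).

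IGFBP1 and IGFBP3 are adjacent protein-coding genes on chromosome 7 in the RefSeq table, and both were lower, by 0.29 and 0.42 on the log2 scale. The other adjacent pair, IGFBP2 and IGFBP5 on chromosome 2, was at or near the filter level. IGFBP2 lay between 0.80 and 3.75 on all 6 arrays, on its single probe set. IGFBP5 had signals of 5.69, 20.9 and 22.8 in controls and of 48.2, 16.5 and 21.0 with the decoy, 1 control array lying under the filter level. Its log2 difference was 0.59, with a 95% interval from -0.32 to 1.51 (adjusted p = 0.311). It was 0.20 without control replicate 1, 0.23 without miR-10b decoy replicate 1 and 0.33 with an offset of 28. The IGFBP5 probe sets disagreed. Of the 3 further ones that were tested, 1 was called lower (log2 difference -1.39, limma adjusted p = 0.025 over all probe sets), at 21.0, 16.5 and 19.9 in controls and 1.49, 1.29 and 6.90 with the decoy, and 2 did not pass. With all its decoy arrays under the filter level, no exact size applies to that difference.

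The other binding proteins overlapped between the groups. IGFBP6, which prefers IGF2, had signals of 2665, 2726 and 2976 in controls and of 2663, 2746 and 2332 with the decoy. The log2 difference was -0.11, with a 95% interval from -0.26 to 0.03 (adjusted p = 0.217). IGFBP4, which restrains IGF action until it is cut, had 154, 127 and 98.0 in controls and 106, 122 and 99.9 with the decoy. Its log2 difference was -0.18, with a 95% interval from -0.53 to 0.16 (adjusted p = 0.411), and it ran from -0.03 without control replicate 1 to -0.34 without control replicate 3. That of IGFBP6 was -0.29 in the values as deposited (adjusted p = 0.082), and -0.04 once miR-10b decoy replicate 3 was left out. Neither gene passed under any alternative.

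IGF2BP3 had control signals of 2969, 2815 and 2711, against 1869, 1749 and 1586 with the miR-10b decoy. The highest decoy array stayed below the lowest control by a wide margin. The mean fell from 2831 ± 130 to 1735 ± 142 (SD, n = 3), a log2 difference of -0.71 (SE 0.06, limma adjusted p = 1.1e-05), or 1.63-fold lower. A second probe set fell from 2772 ± 107 to 1490 ± 59.8 (SD, n = 3), 1.86-fold, and a dimmer one from 124 ± 27.5 to 58.2 ± 15 (SD, n = 3), 2.02-fold. The fourth stood near the filter level with a log2 difference of 0.32 that did not pass. IGF2BP3 and IGFBP7 passed under all 18 alternatives tried.

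**Figure D2:**
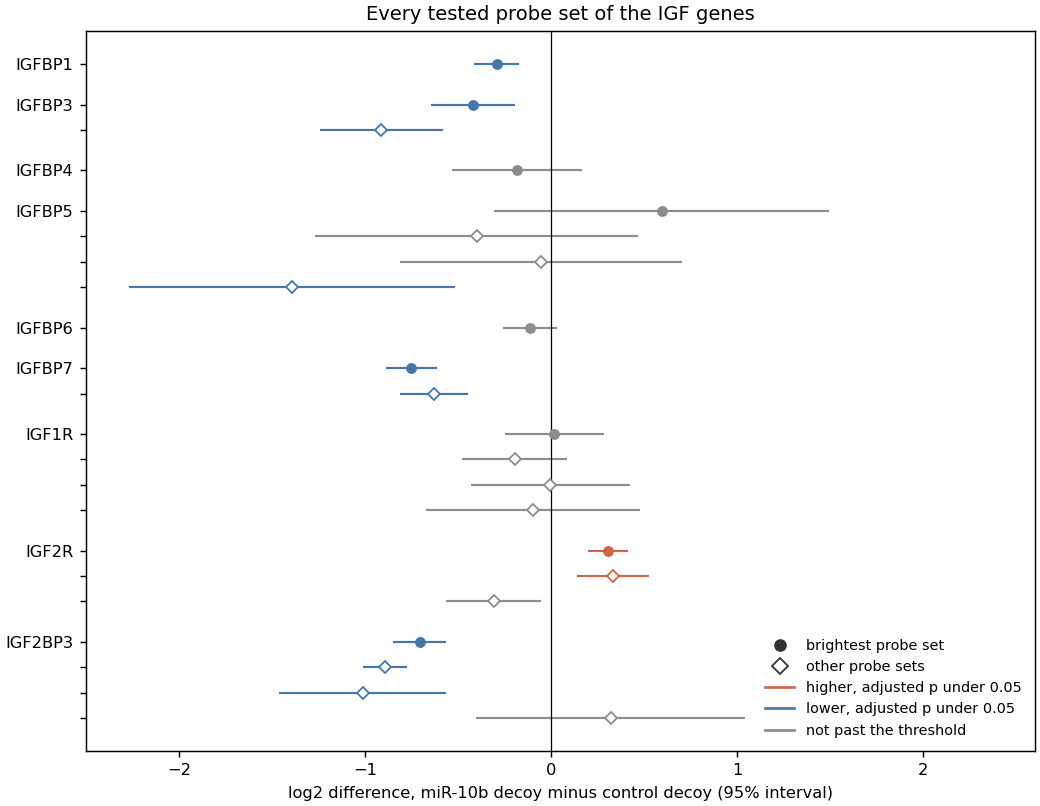
Log2 difference (miR-10b decoy minus control decoy) with its 95% interval for each of the 22 tested probe sets of the 9 tested IGF genes, each tested by itself; filled circles are the brightest probe set of a gene, open diamonds the others, and colour marks those past an adjusted p of 0.05 over all probe sets. All tested probe sets of IGFBP3 and IGFBP7 lie left of 0, and IGF1R, IGF2R, IGFBP5 and IGF2BP3 have probe sets on both sides, those called for a gene always lying on one side.

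Taking the checks together, 13 of the 18 other probe sets were bright enough to test, at a filter set over all probe sets that lay lower than the one for genes. Of these 5 were lower and 1 higher, where 24.9% of all 28764 tested probe sets were called (12.6% lower, 12.3% higher). The lower ones include the IGFBP5 probe set whose decoy arrays all lay under the filter level. It passed the filter only through its control arrays, so its call is no support for the others. No check probe set was called against the direction of a called gene. When each gene was represented by its averaged probe sets, 3 of 8 tested IGF genes were called, all lower, where 22.0% of all genes were, IGFBP5 falling under the filter there.

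Elsewhere in the pathway, the insulin receptor INSR, close kin of IGF1R, was higher with the miR-10b decoy. Its signals were 25.1, 22.6 and 22.8 in controls, a little above the filter level, and 65.5, 86.8 and 105 with the decoy. The log2 difference was 1.58 (SE 0.20, limma adjusted p = 1.3e-04), with 2 of its 4 other probe sets also higher and 2 not past the threshold. The mean of all its probe sets gave 0.80 (adjusted p = 0.015). IGF1 lay near the filter level, at 29.7, 1.90 and 10.2 in controls and 23.3, 22.3 and 20.5 with the decoy, and did not pass (log2 difference 0.71, adjusted p = 0.272). Its difference was 1.23 without control replicate 1 and 0.21 without control replicate 2. INS, INSRR and IGF2-AS were under the filter, and IGF2 had no probe set with a single symbol.

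Of 10 tested genes for proteases that cut IGFBPs, their inhibitors and carriers, 3 were higher and 1 lower. The shares over all tested genes were 16.6% and 17.4%. PAPPA, which cuts IGFBP4, had 2172, 2273 and 2329 in controls and 4300, 3904 and 4347 with the decoy. The PAPPA arrays lay far apart, with a log2 difference of 0.89 (SE 0.05, limma adjusted p = 6.5e-07). Among 9 other tested PAPPA probe sets 6 were higher and 1 lower, and the mean of all gave 0.55 (adjusted p = 0.0012). STC2, a secreted inhibitor of PAPPA, was also higher, from 1376 ± 68.0 to 2373 ± 161 (SD, n = 3), a log2 difference of 0.78, but its second probe set had -0.05 and did not pass, and their mean gave 0.37 (adjusted p = 0.0031). The sheddase ADAM12, which can cut IGFBP3 and IGFBP5, had 0.32, and KLK3, a kallikrein that can cut IGFBP3, had -0.48. Averaging all probe sets ended the calls of ADAM12 and KLK3 (adjusted p = 0.065 and 0.467), and the call of ADAM12 also ended on the signals as deposited (adjusted p = 0.185). Only 1 of the 3 KLK3 probe sets was bright enough to test, so its mean takes in dim ones. The 4 other tested ADAM12 probe sets had log2 differences from 0.09 to 0.46, and 1 was called higher. The 10 genes had a median log2 difference of 0.10.

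Below the receptors, 6 of 29 tested adaptor and PI3K-AKT pathway genes were higher and 2 lower, with a median of 0.01. Over all tested genes 16.6% were higher and 17.4% lower. The docking protein IRS1 went from 412, 383 and 410 to 893, 912 and 1067, a log2 difference of 1.24 (SE 0.08, limma adjusted p = 1.2e-06). Its relative IRS2 rose from 905 ± 124 to 1499 ± 148 (SD, n = 3), a log2 difference of 0.73. FOXO3, a transcription factor that AKT keeps out of the nucleus, rose from 609 ± 45.9 to 1229 ± 125 (SD, n = 3; limma adjusted p = 5.8e-06). GRB10, an adaptor that dampens insulin and IGF receptors, had 0.34, and its call ended in the values as deposited (adjusted p = 0.149). Of the other tested probe sets, 1 of 2 for IRS1, 1 of 1 for IRS2, 2 of 3 for FOXO3 and 0 of 3 for GRB10 were higher.

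The sorting pathway that IGF2R serves went both ways, with 4 of 11 tested genes higher and 2 lower and a median of 0.15. Among all tested genes 16.6% were higher and 17.4% lower. M6PR, the second mannose 6-phosphate receptor, had 768, 680 and 662 in controls and 1242, 1160 and 1088 with the decoy, a log2 difference of 0.72 (SE 0.08, limma adjusted p = 3.1e-05). VPS26A, a retromer subunit that returns receptors from endosomes, had 0.30, a call that ended in the values as deposited (adjusted p = 0.304). GNPTAB and GNPTG, subunits of the enzyme that starts the mannose 6-phosphate tag, were lower at -0.50 and -0.42, that of GNPTG ending without moderation (adjusted p = 0.054). Of the other tested probe sets, 0 of 2 for GNPTAB and 0 of 1 for VPS26A were called, all with the same sign as the brightest. The means of all probe sets still passed, at -0.43 for GNPTAB (adjusted p = 0.0093) and 0.34 for VPS26A (adjusted p = 0.015). M6PR and GNPTG had 1 probe set each.

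Among 9 tested relatives and partners of IGF2BP3, 1 was higher and 2 lower, against 16.6% and 17.4% of all tested genes, with a median of -0.03. IGF2BP2, a paralogue of IGF2BP3, was higher at 0.39, from 750 ± 79.9 to 985 ± 96.9 (SD, n = 3), opposite in sign to IGF2BP3. IGF2BP2 no longer passed in the values as deposited (adjusted p = 0.066). Its adjusted p also rose above 0.05 when the intensity trend was left out (0.051), and likewise with no moderation (0.097). Under the other scalings IGF2BP2 stayed called, at 0.48 after centring on the array median (adjusted p = 0.0012). With a common trimmed mean it had 0.42 (adjusted p = 0.0040). IGF2BP1, the third paralogue, lay under the filter level on every array. The chromatin proteins HMGA2 and HMGA1 were lower at -0.26 and -0.42 on their brightest probe sets. Other probe sets did not bear this out: for HMGA2, 2 of 7 others were higher and 0 lower, and the mean of all gave 0.10 (adjusted p = 0.489), against -0.42 on the brightest one in the values as deposited (adjusted p = 0.0074), and for HMGA1 the mean gave -0.07 (adjusted p = 0.847), its call also ending without moderation (adjusted p = 0.052). SYNCRIP, an RNA-binding partner, had 0.27 and did not pass (adjusted p = 0.071). It passed after centring on the array median (adjusted p = 0.021), and also when control replicate 1 was left out (adjusted p = 0.0049). Its probe sets disagreed, with 2 of 6 other tested ones higher and 1 lower. Over the 5 lists 15 of 61 tested genes were higher and 7 lower, where 16.6% and 17.4% of all genes were. In either direction 22 of 61 were called, against 34.0% of all genes. In the values as deposited 8 were higher and 8 lower (7.90% and 18.5% of all genes).

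**Figure D3:**
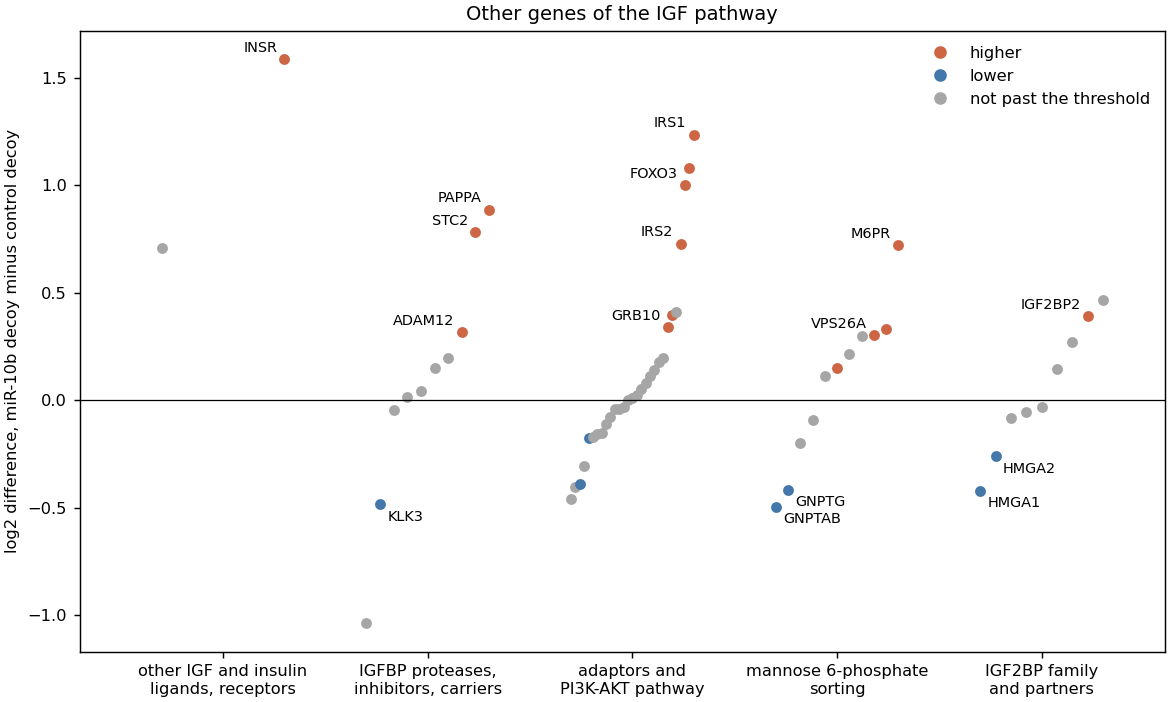
Log2 difference (miR-10b decoy minus control decoy) of the 61 tested genes of 5 IGF pathway lists, sorted within each list; orange points were higher and blue points lower at an adjusted p under 0.05, grey points did not pass, and up to 4 called genes with the smallest adjusted p are named per list. INSR at 1.58 and IRS1 at 1.24 stand highest, and most points lie near 0.

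The arrays differed in ways that touch these values. The reference gene GAPDH had a log2 difference of -0.02 (adjusted p = 0.662), and of -0.18 in the values as deposited (adjusted p = 0.308). Control replicate 3 was brighter as deposited, with a mean signal after trimming 2% at each end of 192 against 155 to 163 on the other 5. Leaving it out left the same 5 IGF genes called, each in the same direction, where 30.0% of all genes were called. The same 5 were also called without control replicate 1 (28.4% of all genes) or 2 (26.8%), and without miR-10b decoy replicate 1 (29.8%), 2 (28.2%) or 3 (28.6%), and with the replicate number as a block (32.9%). The 3' actin control probe set was brighter than the 5' one by 5.73 ± 0.47 times on control arrays and 8.54 ± 1.77 times on decoy arrays (SD, n = 3), a measure of RNA quality. The difference of 2.81 between these ratios was 1.79 without miR-10b decoy replicate 1, which stood at 10.6. A two-sided exact permutation test gave p = 0.1, which 3 against 3 cannot go below. The same ratio for GAPDH was 0.945 ± 0.019 and 0.943 ± 0.007. Of 10 astroglial and glioma markers 7 were tested, with NES lower and the 6 others not past the threshold; GFAP and S100B lay under the filter level on every array. OLIG2, under the filter in mean and not tested, read 0.80, 5.21 and 7.75 in controls and 19.6, 19.6 and 29.8 with the decoy, so that its groups did not overlap and only the decoy arrays lay above the filter level. All 6 fibroblast markers were tested and 3 were higher (PDGFRA, LUM and DCN), where 16.6% of all tested genes were. FAP, PDGFRB and COL1A1 did not pass, with log2 differences of 0.15, 0.12 and -0.14. The summed signal of all 6 ran from 4265 to 4605 in controls and from 4903 to 5258 with the decoy. Endothelial markers summed to 255 to 328 in controls and 211 to 219 with the decoy. Of these 3 of 6 were under the filter and 2 of 3 tested were lower, where 17.4% of all tested genes were. Squamous epithelial markers summed to 48.7 to 97.4 in controls and 79.1 to 98.4 with the decoy, with 4 of 6 under the filter. IVL was called higher, at 11.3, 4.07 and 17.5 in controls and 31.2, 27.2 and 36.8 with the decoy. With 2 control arrays under the filter level, it passed the filter only through its decoy arrays. KRT5 went the other way and did not pass (log2 difference -0.75, limma adjusted p = 0.306). Myeloid markers summed to 82.4 to 129 and 87.6 to 122, with 4 of 6 under the filter. Hepatocyte markers summed to 69.2 to 117 and 62.7 to 74.9, with 2 of 4 under it. The part of RNA integrity and of these markers in the IGF results was not tested. In bulk RNA a lower signal from fewer cells making a transcript and one from less RNA per cell cannot be told apart.

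**Figure D4:**
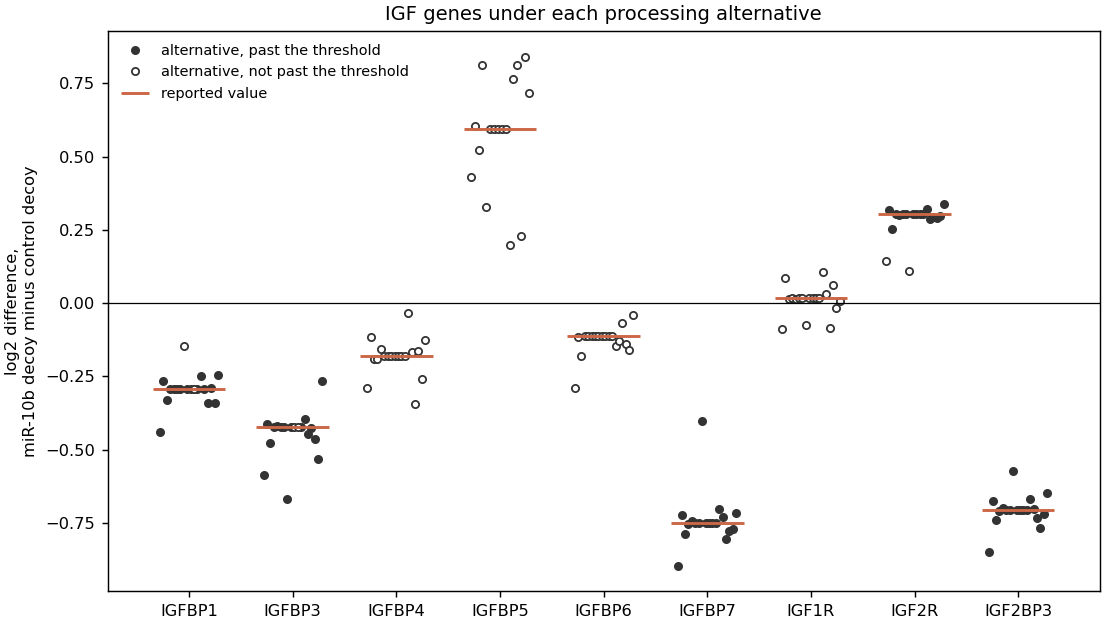
Log2 difference (miR-10b decoy minus control decoy) of the 9 tested IGF genes under each processing alternative; the orange bar is the reported value, filled points passed an adjusted p of 0.05 and open points did not. IGFBP7 and IGF2BP3 stay below 0 and past the threshold throughout, IGF2R drops to 0.15 and 0.11 in the 2 alternatives where it does not pass, and IGF1R lies on both sides of 0.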

How the data were processed

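The members, lists and tests were chosen with earlier results of these data known, so counts over them are descriptions. The deposited values are linear signal intensities, 54675 per array; the submitters' processing notes name MAS5, with neither version nor scaling target given in the sources used. Detection calls and saturation were not used. Symbols came from the platform annotation; 41097 probe sets carried 1 symbol, 1801 several and 11777 none, and control probe sets were left out. All 10 members matched a RefSeq table (GRCh38.p14) by Entrez identifier with 0 symbols changed. Signals were turned into log2(signal + 7) and quantile-normalized over all probe sets, because the deposited intensities were not on one scale. Genes whose mean deposited signal lay under the 30th percentile (15.6) were left out, which left 13842 of 19775. The groups were compared with limma 3.58.1 in R 4.3.3 (lmFit, eBayes with an intensity trend, two-sided, 7.68 prior and 4 residual degrees of freedom), with Benjamini-Hochberg adjustment over all tested genes and a threshold of 0.05. The procedure was tried on simulated data with far fewer changed genes than were called here, which does not test it at that share. Single probe sets were filtered at the 30th percentile over all probe sets, a level lower than 15.6, and adjusted over 28764. Pathway lists and markers were fixed lists, and besides the members up to 4 genes per list with the smallest adjusted p are named, plus IGF1, IGF2 and INSR; other names were added after their values were seen. The alternatives tried were 3 other scalings, offsets of 1 and 28, no filter or one at the 50th percentile, the mean of all probe sets or each by itself, no trend, no moderation, the replicate number as a block, and each array left out in turn.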

Additional observations from a re-analysis of the deposited data

How the results depend on the processing

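All 18 alternatives were planned. Of the 13842 tested genes 4700 were called, 2298 higher and 2402 lower; as deposited the split was 1094 and 2561, and after centring on the array median 2861 and 1740. The count was 3045 with the mean of all probe sets, 7155 with every probe set by itself (more features tested) and 2830 without moderation, where 20.4% of genes were called. The called IGF genes numbered 3 of 8 with the mean of all probe sets (IGF2BP3, IGFBP3 and IGFBP7, all lower), where 22.0% of genes were called and IGFBP5 was under the filter, and 3 of 9 without moderation (IGF2R higher, IGF2BP3 and IGFBP7 lower), against 5 of 9. The cause of these changes was not tested. IGF1R, never called, turned sign as deposited (-0.0900), with the mean of all probe sets (-0.0760), and when control replicate 3 (-0.0836) or the second decoy array (-0.0178) was left out, its range with 1 array left out being -0.0836 to 0.106. HMGA2 turned to 0.103 with the mean of all probe sets. With 1 array left out the same 5 of 9 IGF genes were called each time, where 26.8% to 30.0% of all genes were. Same-numbered arrays did not deviate together (correlations of 0.03, -0.03 and -0.01). With 3 arrays per group this does not settle whether the numbers pair anything, and the labels do not say. With the replicate number as a block 4558 genes (32.9%) were called, and the same 5 IGF genes; SYNCRIP passed there (adjusted p = 0.012).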
